A study of Mus musculus with 4 samples.

Results

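The genes described here are 8 chemokine ligands of stromal cells, namely Ccl2, Ccl7, Cxcl1, Cxcl5, Cxcl10, Cxcl12, Cxcl14 and Cxcl16. They were taken by gene symbol from a table of 27542 genes and transcribed loci, and each symbol had 1 row. The samples were mouse TBV2 embryonic stem (ES) cells grown in serum with LIF, the cytokine that holds ES cells undifferentiated, and the series description also names feeder cells and high density. The knockdown (KD) group was 3 clones in which the long noncoding RNA T-UCstem1, named for its ultraconserved sequence, was lowered, and the non-targeting (NT) control was 1 library. How the knockdown was made is not given in the sources used here, and the level of T-UCstem1 itself was not analysed here. The authors combined the clones into 1 value per gene, so no spread between clones or between control cultures accompanies any level below. Levels are in FPKM, a fragment count per kilobase of transcript relative to library depth, which can be compared between genes.

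Chemokines are small secreted proteins that bind heparan sulfate on cells and matrix and draw cells that carry matching receptors along their gradient. They are named by the spacing of their first cysteines, which are adjacent in CC ligands and separated by another residue in CXC ligands. Embryonic fibroblasts, the usual feeder layer of ES cells, are known for secreting several of them, and NF-kB and interferon signalling are their best known inducers.

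In KD cells Ccl2 was called higher, and it was the only chemokine of the 8 to pass the authors' test. Of the 7 that the authors tested, 1 was called higher, 0 were called lower and 6 were not called. Over all 15477 tested genes and loci the authors called 1.15%, and 0.963% were called higher and 0.187% lower in KD. The levels summed over the 8 chemokines were 54.1 FPKM in KD cells and 13.9 FPKM in NT cells. Ccl2 made up 67.5% of that sum in KD cells and 61.9% in NT cells.

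**Figure D1:**
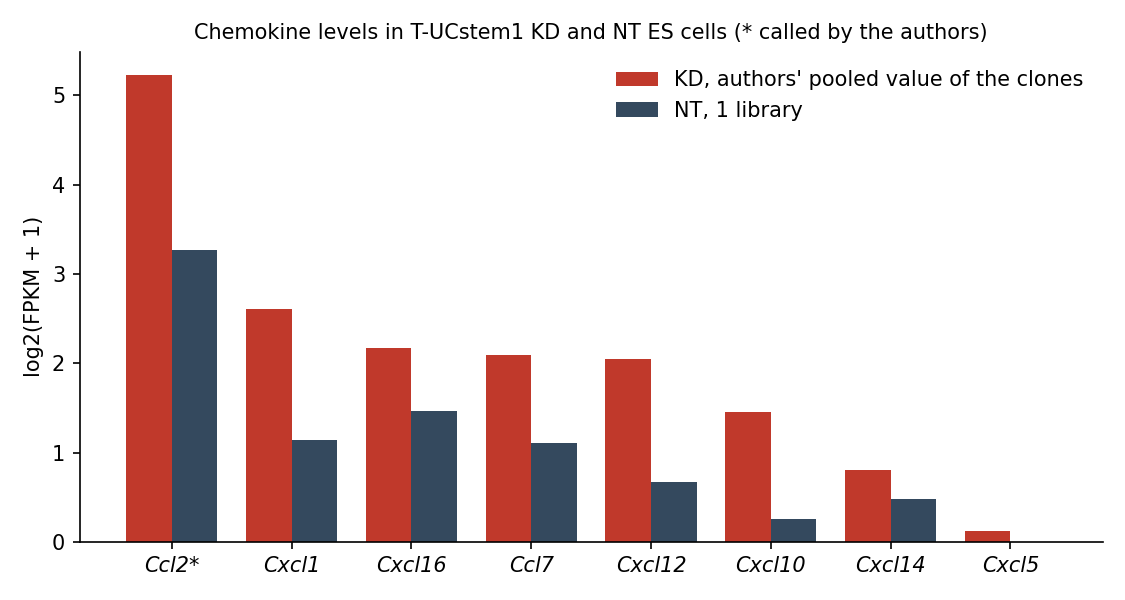
Level of each chemokine on the log2(FPKM + 1) scale, with the authors' pooled KD value as the left bar and the NT library as the right bar of each pair, and no error bars because each condition has 1 value. Ccl2 stands at 36.5 FPKM in KD cells and 8.60 FPKM in NT cells, above the other 7 genes in both conditions.

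The CC ligands were the pair of monocyte attractants Ccl2 and Ccl7, whose products both act on the receptor CCR2. Ccl2 (mm9 chromosome 11, 81849079 to 81850954) had 36.5 FPKM in KD cells and 8.60 FPKM in NT cells. Its log2 fold, log2((KD FPKM + 1)/(NT FPKM + 1)), was 1.97, and the authors' deposited table gives a Cuffdiff p of 0.0005 and a q of 0.0440. That q lies close to the threshold of 0.05, and the largest q that the authors called was 0.0478. Among 12001 named genes that reached 1 FPKM in either condition, Ccl2 stood at percentile 81.4 in KD cells and percentile 43.5 in NT cells. Ccl2 was thus a gene of moderate abundance in both conditions, while the other 7 chemokines were low.

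Ccl7 (chromosome 11, 81859214 to 81861025) had 3.25 FPKM in KD cells and 1.16 FPKM in NT cells. Its log2 fold was 0.98, and it was not called, with q = 0.684 per the authors' deposited table. It begins 8260 bp beyond the end of Ccl2 and is the next row on that side, while the row on the other side, the ion channel gene Asic2, had 0.0847 FPKM in KD cells and 0.144 FPKM in NT cells and was not tested. The Ccl2 and Ccl7 rows head a run of 6 CC ligand genes. The 4 ligand genes beyond them were not tested. Of these Ccl11, which encodes an eosinophil attractant, had 0.0183 FPKM in KD cells and was listed at 0 in NT cells, and the other 3, among them the monocyte attractant genes Ccl8 and Ccl12, were listed at 0 in both conditions.

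**Figure D2:**
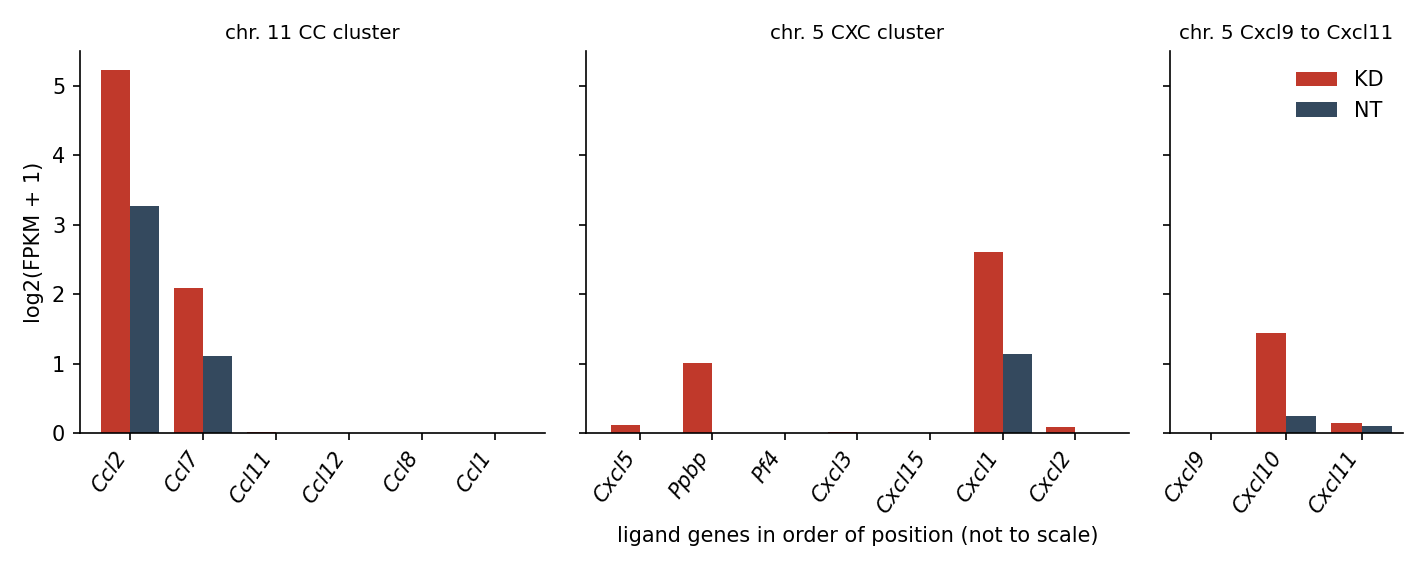
Level of every CC or CXC ligand gene in the neighbourhoods of Ccl2, Cxcl1 and Cxcl10 on the log2(FPKM + 1) scale, in order of position and not to scale, with KD left of NT. Cxcl10 and Cxcl11 share a locus in the table and are drawn in its row order. Ccl2, Cxcl1 and Cxcl10 stand above their neighbours in KD cells, and Ccl7 stands below Ccl2 and above the rest of its run. After these Ppbp, at 1.01 FPKM in KD cells, is the next highest.

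Cxcl1 and Cxcl5 encode neutrophil attractants that act on the receptor CXCR2 and lie in a run of 7 CXC ligand genes on chromosome 5. Cxcl1 (91320271 to 91322141) had 5.10 FPKM in KD cells and 1.20 FPKM in NT cells. Its log2 fold was 1.47, with p = 0.0119 and q = 0.276 per the authors' deposited table, so it was not called. Cxcl5 (91188324 to 91190651) had 0.0875 FPKM in KD cells and was listed at 0 in NT cells, and the authors did not test it. On its coding transcript, 3 fragments in the NT library would be about 0.0629 FPKM by the estimate given below.

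Within the same run of genes, Ppbp, a platelet CXC ligand, had 1.01 FPKM in KD cells and was listed at 0 in NT cells. The authors' deposited table gives it a p of 0.00095 and a q of 0.0684, so it was not called. Of the 7 CXC ligand genes there, 5 had a level above 0 in KD cells, 3 of them under 0.1 FPKM, and 1, Cxcl1, had a level above 0 in NT cells. Over all 27542 rows, 81.1% were above 0 in KD cells and 75.3% in NT cells. Of the 6809 rows listed at 0 in NT cells 26.6% were above 0 in KD cells, and of the 5209 listed at 0 in KD cells 4.01% were above 0 in NT cells. More rows were thus above 0 in the pooled KD values than in the NT library, and the part of this in the counts of ligand genes above 0 was not tested. Cxcl2, the closest neighbour of Cxcl1, had 0.0625 FPKM in KD cells and was listed at 0 in NT cells.

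Cxcl10 encodes an interferon-induced ligand that draws activated T cells through the receptor CXCR3. Its level was 1.73 FPKM in KD cells and 0.195 FPKM in NT cells. The log2 fold was 1.19, and the gene was not called, with q = 0.655 per the authors' deposited table. The ratio of the FPKM values was 8.86, the highest among the members with a level above 0 in both conditions, but the NT value rests on about 6 to 8 fragments. The row shares its locus (chromosome 5, 92760867 to 92843653) with rows for Art3 and Cxcl11, and a use of strand is not given in the sources used here, so reads of these genes may have been exchanged. Cxcl11 had 0.111 FPKM in KD cells and 0.0781 FPKM in NT cells, and Art3 had 0.180 FPKM in KD cells and 0.0211 FPKM in NT cells.

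The upstream sequences of Cxcl1 and Cxcl10 are shown because both are textbook targets of NF-kB, and Cxcl10 of interferon signalling, and these are the inducers whose genes are described further on. Each is the run of 250 bases before the RefSeq start of the gene in build GRCm38.p6, at chr5:90890995-90891244 on the plus strand for Cxcl1 and chr5:92348890-92349139 on the minus strand for Cxcl10. Capitals mark matches to the NF-kB consensus or to an interferon-response element, taken as 2 copies of GAAA with 2 bases between them, searched on both strands.
Cxcl1: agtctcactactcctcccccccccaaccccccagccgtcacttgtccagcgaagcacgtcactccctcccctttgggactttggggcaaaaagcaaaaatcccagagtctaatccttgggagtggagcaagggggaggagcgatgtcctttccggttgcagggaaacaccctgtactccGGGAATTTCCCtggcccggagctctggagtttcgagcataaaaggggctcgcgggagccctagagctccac
Cxcl10: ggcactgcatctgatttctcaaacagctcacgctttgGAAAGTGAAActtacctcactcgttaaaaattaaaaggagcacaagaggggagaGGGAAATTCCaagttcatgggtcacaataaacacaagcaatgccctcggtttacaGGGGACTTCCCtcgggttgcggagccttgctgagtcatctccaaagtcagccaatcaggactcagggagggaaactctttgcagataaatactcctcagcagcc

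The Cxcl1 window holds an NF-kB match that begins 71 bases before the start, and a second match on the other strand overlaps it. In the Cxcl10 window, NF-kB matches begin 159 and 104 bases before the start, the second of them overlapped by another match, and the interferon-response match begins 213 bases before it. An AP-1 match, TGANTCA, begins 74 bases before the Cxcl10 start. Of 32851 promoter windows of the same length, 7.25% hold an NF-kB match, 2.98% hold an interferon-response match and 6.75% hold TGANTCA. Windows were found for 4 of the 8 members. Those of Cxcl12 and Cxcl14 hold no NF-kB match. That of Cxcl14 holds an interferon-response match, and that of Cxcl12 holds 5 matches to the GC box GGGCGG, which 32.7% of windows hold. Ccl2, Ccl7, Cxcl5 and Cxcl16 had no entry. A match is a run of letters and not a measured binding site.

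Cxcl12, the stromal factor that guides blood stem cells and primordial germ cells through the receptor CXCR4, had 3.15 FPKM in KD cells and 0.590 FPKM in NT cells. Its log2 fold was 1.39, with p = 0.0029 and q = 0.134 per the authors' deposited table, so it was not called. Cxcl12 lies on chromosome 6 (117118553 to 117131386), whose 551 named genes at 1 FPKM or more had a median log2 fold of 0.27. The medians of the chromosomes that carry the other members were 0.04 for chromosome 11, -0.02 for chromosome 5 and -0.02 for chromosome 13. The part of the chromosome-wide shift in the Cxcl12 value was not tested.

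Cxcl16 encodes a membrane-anchored ligand of the receptor CXCR6 that is released by cleavage. It had 3.51 FPKM in KD cells and 1.76 FPKM in NT cells, a log2 fold of 0.71. It was not called, with q = 0.889 per the authors' deposited table. Its locus (chromosome 11, 70267736 to 70279701) overlaps the row of Zmynd15. Cxcl14 (chromosome 13, 56390006 to 56397912), a ligand made by epithelia and fibroblasts, had 0.744 FPKM in KD cells and 0.392 FPKM in NT cells, a log2 fold of 0.33, and was not called, with q = 0.987 per the authors' deposited table.

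By level in KD cells the order was Ccl2, Cxcl1, Cxcl16, Ccl7, Cxcl12, Cxcl10, Cxcl14 and Cxcl5. In NT cells Cxcl16 stood second and Cxcl14 stood above Cxcl10, and Cxcl1 and Ccl7, at 1.20 and 1.16 FPKM in NT cells, lay close together. With 1 value per condition, none of the steps between neighbours in these orders can be set against a spread. In KD cells 6 of the 8 reached 1 FPKM, and in NT cells 4 did. Ccl2 was 7.15 times the level of the next chemokine, Cxcl1, in KD cells, and 4.87 times that of Cxcl16 in NT cells.

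All 7 tested chemokines had a higher value in KD cells than in the NT library, whereas 50.9% of all tested genes and loci did, and the untested Cxcl5 was above 0 in KD cells alone. The 6 chemokines with at least 1 FPKM in either condition had a median log2 fold of 1.29, ranging from 0.71 to 1.97, beside a median of 0.02 over the 12001 named genes at that level. Of the 7 tested, 4 had a log2 fold above 1, namely Ccl2, Cxcl1, Cxcl12 and Cxcl10, beside 2.72% of all tested rows. All 7 stood below 10 FPKM in NT cells, and among the 8790 tested rows below that level 4.39% had such a fold, 52.4% had a fold above 0 and 1.33% were called higher. At an unadjusted p of 0.05 or less, 3 of the 7, Ccl2, Cxcl1 and Cxcl12, were higher in KD cells, beside 6.10% of all tested rows and 8.68% of those below 10 FPKM in NT cells. The members were proposed with earlier results of these data known, so these shares describe them and are not a test.

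**Figure D3:**
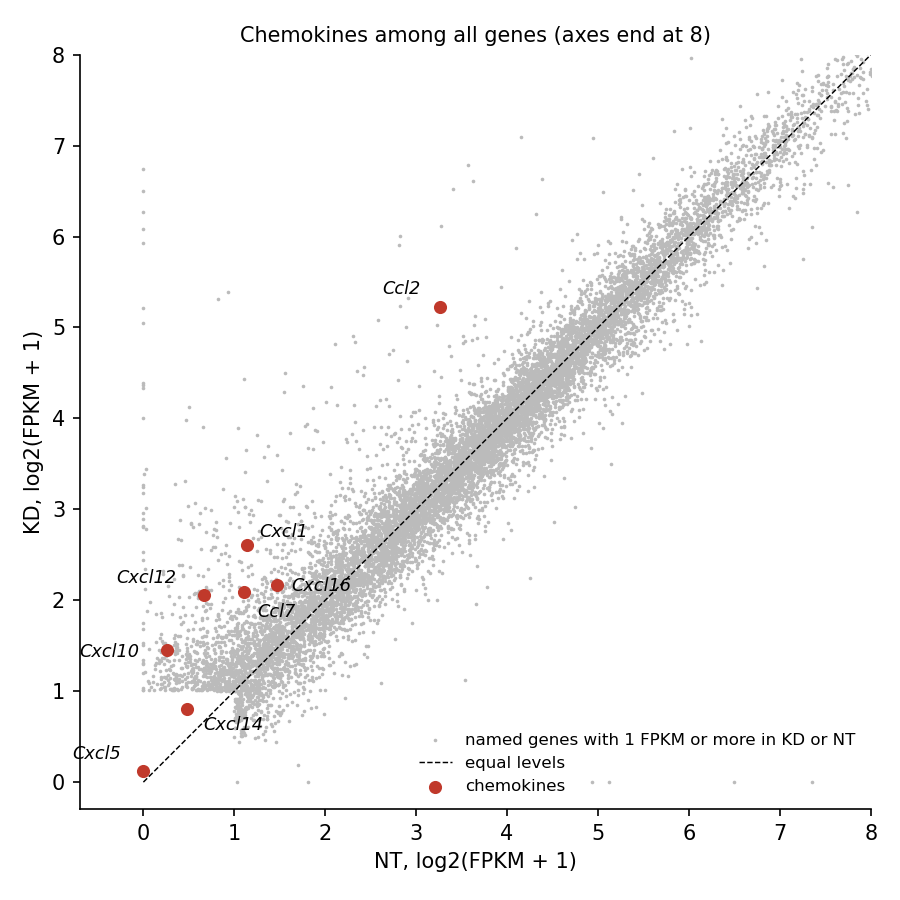
KD level against NT level on the log2(FPKM + 1) scale for named genes with 1 FPKM or more in either condition (grey) and the 8 chemokines (red), with the line of equal levels dashed and both axes ended at 8. All 8 chemokines lie above the line, and Ccl2, at 36.5 FPKM in KD cells and 8.60 FPKM in NT cells, lies apart from the lower 7.

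The number of reads is not given in the sources used here. In NT cells low values of FPKM times transcript length in kb were most often near 0.033, which would be the worth of 1 fragment. In the pooled KD values they were most often near 0.017. On the NT basis the NT levels rested on about 212 fragments for Ccl2, 144 for Cxcl16, 35 for Cxcl1, 28 for Ccl7 and 17 to 22 for Cxcl14. For Cxcl12, whose coding transcripts differ in length, the figure lies between 34 and 101. The folds of Cxcl10 and Cxcl5 therefore carry the widest counting error.

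The genes whose pair of levels was nearest to that of Ccl2, by distance in the plane of KD and NT log2(FPKM + 1), were Gpx3, Cryab and Cpe. Gpx3, a secreted glutathione peroxidase, had 31.6 FPKM in KD cells and 8.40 FPKM in NT cells. Cryab, a small heat shock protein, had 39.0 FPKM in KD cells and 6.51 FPKM in NT cells, and Cpe, a prohormone-processing carboxypeptidase, had 34.0 FPKM in KD cells and 11.5 FPKM in NT cells. The authors called all 3 higher. The likeness rests on 2 values per gene.

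Among the remaining chemokine ligands, 30 of 33 listed genes had a row of their own, 5 were tested, and 0 were called. At an unadjusted p of 0.05 or less, 2 of the 5 tested were higher in KD cells, beside 6.10% of all tested rows. The authors called 1.15% of all tested rows. In KD cells 4 of these ligands reached 1 FPKM, and in NT cells 2 did. Ccl25, a thymic and gut ligand, had 3.07 FPKM in KD cells and 2.78 FPKM in NT cells, and Cx3cl1, fractalkine, had 1.83 FPKM in KD cells and 1.23 FPKM in NT cells. Ccl27a, a skin ligand, had 1.06 FPKM in KD cells and 0.649 FPKM in NT cells. Ccl20, the ligand of CCR6 and the other gene of low p beside Ppbp, was singled out after its value was seen, at 0.977 FPKM in KD cells and listed at 0 in NT cells, with q = 0.129 per the authors' deposited table.

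Receptors for these ligands were scarce in both conditions. Of 24 receptor genes 4 were tested and 0 were called, and 0 passed an unadjusted p of 0.05. Among all tested rows 1.15% were called and 6.10% were higher in KD cells at that p, so 4 genes tell little. Ackr3, a scavenger of CXCL12, was the highest, at 2.30 FPKM in KD cells and 2.71 FPKM in NT cells, followed by Cxcr4 at 2.29 FPKM in KD cells and 1.76 FPKM in NT cells. Ccr4, a T-cell receptor for CC ligands, had 0.438 FPKM in KD cells and 0.630 FPKM in NT cells. The receptors matched to the members were named after their values were seen. Ccr2 was listed at 0 in KD cells and at 0.00958 FPKM in NT cells, and Cxcr3 had 0.0130 FPKM in KD cells and was listed at 0 in NT cells. Cxcr2 had 0.646 FPKM in KD cells and 0.308 FPKM in NT cells, and Cxcr6 had 0.317 FPKM in KD cells and 0.471 FPKM in NT cells. Ligand and receptor were thus both above 1 FPKM in KD cells for Cxcl12 with Cxcr4 and Ackr3, and not for Ccl2 with Ccr2.

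Proteases that cleave chemokines and the heparan sulfate carriers that hold them were all measured. Of 18 genes 0 were called, while 6 were higher in KD cells at an unadjusted p of 0.05 or less and 0 were lower. The median log2 fold of the 18 was 0.34. Over all tested rows 6.10% were higher at that p and 1.15% were called. Sdc4, a cell-surface heparan sulfate proteoglycan, had 36.3 FPKM in KD cells and 19.5 FPKM in NT cells, with q = 0.142 per the authors' deposited table. Sdc1 and Sdc2 of the same family had 7.56 and 3.74 FPKM in KD cells, against 3.65 and 1.54 FPKM in NT cells. Hspg2, the basement membrane proteoglycan perlecan, had 60.3 FPKM in KD cells and 44.8 FPKM in NT cells, and Ext2, an enzyme of heparan sulfate synthesis, had 16.8 FPKM in KD cells and 16.5 FPKM in NT cells. Chosen after their values were seen, Dpp4, which trims the ends of CXCL10 and CXCL12, had 13.4 FPKM in KD cells and 6.88 FPKM in NT cells. Adam10 and Adam17, the sheddases of CXCL16, had 12.5 and 9.94 FPKM in KD cells, against 8.98 and 10.3 FPKM in NT cells. None of these was called.

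None of the 16 NF-kB subunits, inhibitors and kinases was called, and at an unadjusted p of 0.05 or less 0 were higher and 1 was lower in KD cells. The shares over all tested rows were 1.15% called and 6.10% higher at that p. The 14 that reached 1 FPKM in either condition had log2 folds from -0.68 to 0.56, 9 above and 5 below 0, with a median of 0.01. The gene of low p was Nfkbia, the inhibitor that NF-kB itself induces, at 18.9 FPKM in KD cells and 30.8 FPKM in NT cells, with q = 0.450 per the authors' deposited table. Bcl3, an atypical inhibitor family member, had 15.0 FPKM in KD cells and 23.6 FPKM in NT cells, and Chuk, an activating kinase, had 51.9 FPKM in KD cells and 47.9 FPKM in NT cells. Nfkb1, which encodes the p50 subunit, was named after its value was seen, at 12.7 FPKM in KD cells and 13.6 FPKM in NT cells.

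Inflammatory cytokines, receptors and induced genes held 2 calls. Of 19 tested genes 2 were called higher, 0 were called lower and 17 were not called, and the 16 that reached 1 FPKM in either condition had a median log2 fold of 0.56. At an unadjusted p of 0.05 or less 6 were higher in KD cells and 0 were lower. Over all tested rows 6.10% were higher at that p and 0.963% were called higher. Csf1, the growth factor of macrophages, rose to 5.73 FPKM in KD cells, against 0.606 FPKM in NT cells, with a log2 fold of 2.07 and q = 0.0204 per the authors' deposited table. Ptgs2, the inducible cyclooxygenase COX-2, rose to 13.7 FPKM in KD cells, against 2.71 FPKM in NT cells, with a log2 fold of 1.98 and a q of 0.00815 there. Il11, a cytokine of the IL-6 family, had 1.93 FPKM in KD cells and 0.456 FPKM in NT cells, and Lcn2, the siderophore-binding lipocalin, had 1.35 FPKM in KD cells and 0.224 FPKM in NT cells, neither of them called. Icam1, an adhesion molecule that NF-kB induces, had 47.3 FPKM in KD cells and 49.0 FPKM in NT cells. Cebpb, a transcription factor of inflammatory genes, had 8.65 FPKM in KD cells and 4.81 FPKM in NT cells, and Myd88, the adaptor of Toll-like and IL-1 receptors, had a log2 fold of 0.11, neither of them called. The following 5 were named after their values were seen. Vcam1, a leukocyte adhesion molecule, had 1.01 FPKM in KD cells and 0.180 FPKM in NT cells, and Tlr4, the endotoxin receptor, had 0.545 FPKM in KD cells and 0.0960 FPKM in NT cells, both with a p under 0.05 and neither called. Il6 had 0.716 FPKM in KD cells and 0.0324 FPKM in NT cells and was not called. Il1b had 0.0329 FPKM in KD cells and 0.0984 FPKM in NT cells, and Tnf was listed at 0 in both conditions.

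None of the interferon genes was called. Of 23 genes with a row of their own 15 were tested and 8 were not, and 0 passed an unadjusted p of 0.05. Among all tested rows 1.15% were called and 6.10% were higher in KD cells at that p. Among the 12 genes that reached 1 FPKM in either condition, 6 were above and 6 below 0 in log2 fold. These folds ranged from -0.41 to 0.68 with a median of 0.01. The genes under 1 FPKM in both conditions were looked at after their values were seen, and all but Irf7 were higher in KD cells. Isg15 had 0.800 FPKM in KD cells and 0.170 FPKM in NT cells. Ifit2 had 0.755 FPKM in KD cells and 0.312 FPKM in NT cells, and Irf7 had 0.133 FPKM in KD cells and 0.210 FPKM in NT cells. Bst2, an interferon-induced antiviral tether, had 17.7 FPKM in KD cells and 21.5 FPKM in NT cells, and Irf3, a transcription factor of the interferon response, had 13.9 FPKM in KD cells and 14.7 FPKM in NT cells. Jak1, a kinase of interferon receptors, had 14.8 FPKM in KD cells and 10.4 FPKM in NT cells, and Ifngr2, a chain of the interferon gamma receptor, had 5.04 FPKM in KD cells and 2.77 FPKM in NT cells.

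**Figure D4:**
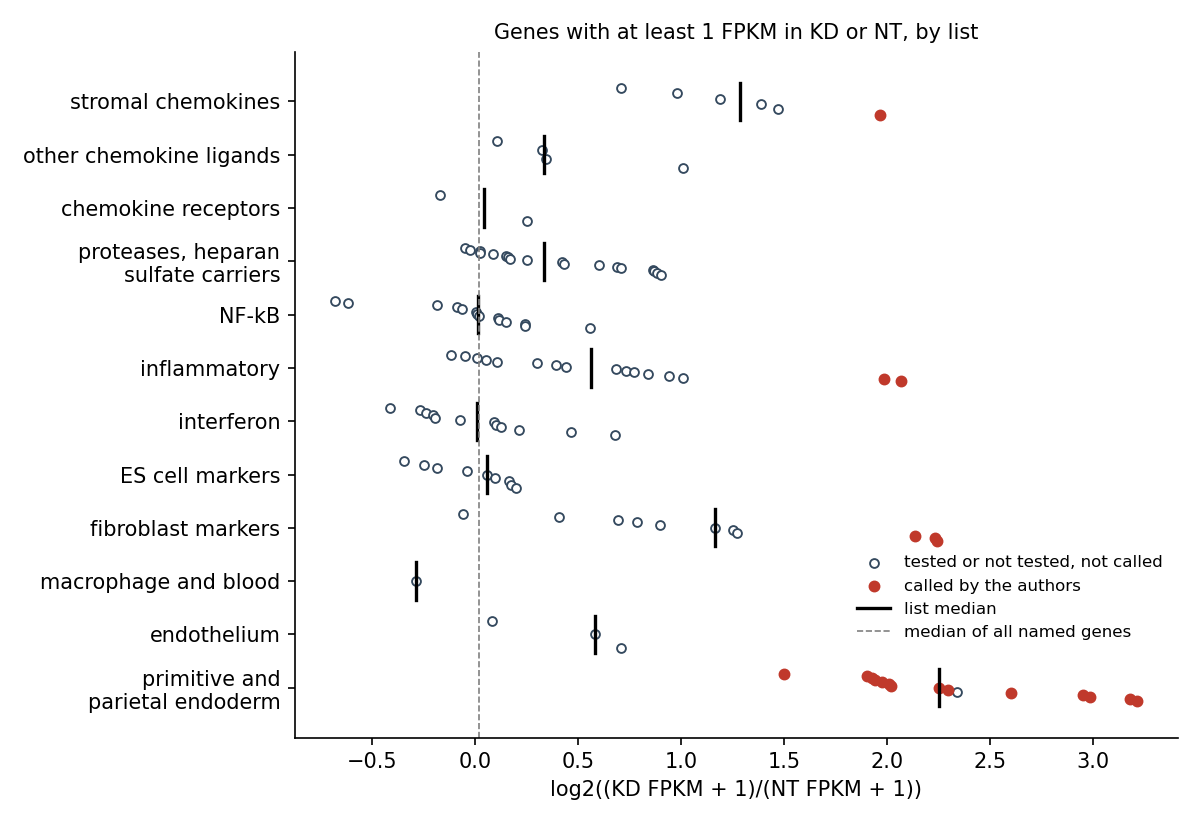
Log2((KD FPKM + 1)/(NT FPKM + 1)) of each gene with at least 1 FPKM in either condition, by list, with genes called by the authors filled, list medians as black bars and the median of all named genes, 0.02, as the dashed line. Medians run from -0.29 for the macrophage and blood list (1 gene) over 0.01 for NF-kB and interferon, 0.04 for receptors, 0.06 for ES cell markers, 0.33 for other ligands, 0.34 for proteases and carriers, 0.56 for inflammatory genes, 0.58 for endothelium, 1.17 for fibroblast markers and 1.29 for the chemokines to 2.25 for endoderm markers.

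Markers of other cells were set beside the chemokines. The cells carried the ES cell markers of their label, with Pou5f1 at 1078 FPKM in KD cells and 1036 FPKM in NT cells and Tdgf1 at 686 FPKM in KD cells and 706 FPKM in NT cells, and 0 of 9 tested markers were called. Embryonic fibroblast markers summed to 73.8 FPKM in KD cells and 21.9 FPKM in NT cells, a ratio of 3.36. The ratio of sums was 3.89 for the chemokines and 5.69 for the endoderm markers described next. Of 14 tested fibroblast markers, 10 were higher in KD cells at an unadjusted p of 0.05 or less and 0 were lower. Over all tested rows 6.10% were higher at that p and 0.963% were called higher. Of the 11 fibroblast markers that reached 1 FPKM in either condition, 10 had a log2 fold above 0. Among the 14 tested, 3 were called higher, 0 were called lower and 11 were not called. The 3 were the matrix genes Tnc (16.3 FPKM in KD cells and 2.66 FPKM in NT cells), Bgn (13.3 FPKM in KD cells and 2.05 FPKM in NT cells) and Fbln2 (14.3 FPKM in KD cells and 2.48 FPKM in NT cells). Without these 3 the fibroblast markers summed to 29.9 FPKM in KD cells and 14.8 FPKM in NT cells, a ratio of 2.02, and the chemokines without Ccl2 had a ratio of 3.32. The called genes had the largest log2 folds of both lists, so these ratios cover the smaller ones and cannot rank the lists. The markers that follow were named after their values were seen. The interstitial collagen gene Col1a1 had 3.63 FPKM in KD cells and 0.920 FPKM in NT cells. Col1a2 and Lox had 4.03 and 1.84 FPKM in KD cells, against 1.12 and 0.268 FPKM in NT cells, neither of them called. Thy1, a surface glycoprotein and the highest fibroblast marker in NT cells, had 7.06 FPKM in KD cells and 5.08 FPKM in NT cells. Pdgfrb, a platelet-derived growth factor receptor, had 2.57 FPKM in KD cells and 2.73 FPKM in NT cells, and the collagen gene Col6a2 had 0.710 FPKM in KD cells and 0.973 FPKM in NT cells. Of the 14.8 FPKM in NT cells without the called 3, Thy1 gave 5.08 FPKM and Pdgfrb gave 2.73 FPKM. Col3a1 had 0.244 FPKM in KD cells and 0.0628 FPKM in NT cells, and Lum was listed at 0 in both. Primitive and parietal endoderm markers moved further, with 14 of 15 called higher and sums of 731 FPKM in KD cells and 129 FPKM in NT cells. Sparc, the most abundant, had 249 FPKM in KD cells and 64.2 FPKM in NT cells, and Col4a1, Col4a2, Lamb1 and Cubn had log2 folds between 2.95 and 3.21.

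Macrophage and blood markers with a row of their own were low apart from Itgam. Of 13 listed markers 3, Cd68, Hbb-b1 and Hba-a1, had only rows shared with other symbols and were left out. The 10 with a row of their own summed to 3.53 FPKM in KD cells and 3.59 FPKM in NT cells, of which the integrin gene Itgam gave 2.44 FPKM in KD cells and 3.20 FPKM in NT cells. Cd14 had 0.444 FPKM in KD cells and 0.224 FPKM in NT cells. The markers Aif1, Tyrobp, Ptprc and Fcer1g were named after their values were seen. Aif1 and Tyrobp were listed at 0 in both conditions, and Ptprc had 0.0159 FPKM in KD cells and 0.00544 FPKM in NT cells. Fcer1g had 0.468 FPKM in KD cells and 0.0758 FPKM in NT cells and was not tested. Endothelial markers summed to 42.1 FPKM in KD cells and 36.9 FPKM in NT cells, with 0 of 5 tested called. Of these sums, Pecam1, which ES cells also express, gave 35.9 FPKM in KD cells and 33.9 FPKM in NT cells. Tek, an angiopoietin receptor, had 2.37 FPKM in KD cells and 1.06 FPKM in NT cells, and Emcn was listed at 0 in both. Cdh5, named after its value was seen, had 0.944 FPKM in KD cells and 0.168 FPKM in NT cells. At an unadjusted p of 0.05 or less 2 of the 5 tested, Cdh5 and Tek, were higher in KD cells and 0 were lower. Over all tested rows 6.10% were higher at that p and 1.15% were called. The 3 endothelial markers that reached 1 FPKM in either condition had a median log2 fold of 0.58. In bulk RNA a change in the number of cells of a type and a change of RNA per cell cannot be told apart, and the part of the fibroblast and endoderm markers in the chemokine levels was not tested.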

How the data were processed

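RNA sequencing was done on 4 libraries of TBV2 ES cells, 3 KD clones and 1 NT control, from total RNA, per the labels. Reads were processed by the authors with TopHat, Cufflinks and Cuffdiff on mm9, per the submitters' processing notes. Their versions, annotation, scaling and strand setting are not stated in any source used here. The deposited table gives 1 FPKM per gene and condition, per the file headers. The condition named treated was taken as the pooled KD clones and that named control as the NT library. With 1 control library the deposited p-value and q-value hold no measured spread between control cultures. Over the 15477 tested rows, Benjamini-Hochberg adjustment gave the deposited q to within 5.2e-07. Calls are the authors' marks, and no test was run on the FPKM.

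Folds were recomputed with a pseudocount of 1 FPKM, which understates changes of low genes. The deposited log2 column, which the authors computed as control over treated, was used only to check direction. Per symbol the row with the highest mean FPKM was kept, rows not tested by the authors included, and rows of several symbols were left out of the related lists and marker lists. Starts are counted from 1. Transcript lengths came from GENCODE M21 and promoters from RefSeq (GRCm38.p6). Named genes were every called member of a list, its 3 most abundant uncalled members and its 2 largest uncalled folds, and for markers up to 4 called and the 2 most abundant. The members, lists and rules were chosen with earlier results of these data known. The adjustment was tested on simulated data. Python 3.11.15, pandas 2.3.3 and numpy 2.4.6 were used. Counting estimates cover counting error only.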

Additional observations from a re-analysis of the deposited data

How the results depend on the processing

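The folds of the 8 chemokines were recomputed with pseudocounts of 0.1 and 0.5 FPKM, which cannot turn a direction. They were also recomputed with centring on the median of all named genes, which moves all genes by about 0.02. Upper quartile scaling moved Ccl2 from 1.966 to 1.942 and low genes by less, with Cxcl5 going from 0.121 to 0.119. Summing rows changed nothing, since each symbol has 1 row. The Ccl2 fold ranged from 1.94 to 2.07, and that of Cxcl10 from 1.17 to 2.63. The chemokine median was 2.03 with a pseudocount of 0.1, 1.70 with 0.5 and 1.09 over all members with a row. It was 1.19 without Cxcl12 of chromosome 6, an alternative chosen after seeing the data. The count of called members was 3 by an unadjusted p and 4 by a 2-fold rule without a test. It was 1 at a q of 0.10 and with the adjustment made over rows of at least 1 FPKM (Ccl2 q of 0.0389) or over rows of 1 symbol (0.0392). In the related lists an unadjusted p gave 2 genes among other ligands, 6 among proteases and heparan sulfate carriers, 1 among NF-kB genes and 6 among inflammatory genes, and a q of 0.10 gave 1 among other ligands. No paired analysis was possible because the control is 1 library and the clones have no values of their own, and no library could be left out for the same reason. Depth limits Cxcl5 and Cxcl10 most.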

Other observations

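Beyond the CXC ligand genes of chromosome 5 lies a run of epidermal growth factor family ligands, which was singled out after its values were seen. Ereg, epiregulin, was called higher by the authors, at 3.07 FPKM in KD cells and 0.519 FPKM in NT cells, with a log2 fold of 1.42 and q = 0.0410 per the authors' deposited table. Areg, amphiregulin, had 0.426 FPKM in KD cells and 0.0477 FPKM in NT cells and was not tested. Btc, betacellulin, had 0.892 FPKM in KD cells and 0.241 FPKM in NT cells and was not called, with q = 0.452 per the authors' deposited table. Epgn, epigen, had 0.0269 FPKM in KD cells and was listed at 0 in NT cells.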
